A study of Mus musculus with 4 samples.

Results

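The 44 genes described here mark dividing cells in the embryonic mouse penis. They comprise 19 genes of DNA synthesis (S genes), 22 genes of G2 and mitosis (G2/M genes) and 3 inhibitors of cyclin-dependent kinases (CDKs), Cdkn1a, Cdkn1b and Cdkn1c, chosen by name from the 32287 features of the count matrices. Each library was 1 dissociated male genitalia at embryonic day 16.5, and the question was whether the cell cycle genes differed after loss of the cells with a history of Nr5a1 expression. The control samples (DTA-, labelled WT, genotype Nr5a1-Cre +/+;RosaDTA +/f in the study) were 2 libraries. The ablated samples (DTA+, Nr5a1-Cre Tg/+;RosaDTA +/f) were also 2 libraries. Both genotypes carried the RosaDTA allele, a diphtheria toxin A gene at the Rosa locus that is switched on where Cre is made. Nr5a1-Cre is also active in the testes and adrenal glands, so ablation was not limited to the genitalia, and effects that reach the penis from those organs and effects of cells lost within it cannot be told apart in these samples.

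Cells copy their DNA in S phase, segregate it in mitosis and rest or prepare in between, and each step uses its own set of transcripts. S genes are switched on by E2F factors once cyclin D and cyclin E with their CDKs have inactivated the retinoblastoma protein. G2/M genes are held down in resting cells by the DREAM complex and are switched on later through B-MYB and FOXM1, while the CDK inhibitors slow or stop the cycle. In the growing genital tubercle, proliferation of the mesenchyme shapes the glans and prepuce around the urethra.

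The promoters of the 2 gene classes differ in the motifs they hold, and 2 promoters of each class are printed as examples of these motifs, from genes described below. The windows run from 250 bases before to 50 bases after the RefSeq gene start (GRCm38.p6), 5′ to 3′ on the gene's strand. Capitals mark, on either strand, an E2F-type motif (TTTCCCGC or TTTGGCGC), a CCAAT box (CCAAT) or a cell cycle homology region (CHR, TTTGAA). The windows lie at chr8:75109259-75109558 (plus strand) for Mcm5, a subunit of the replicative helicase, at chr9:65890073-65890372 (plus strand) for Pclaf, a partner of PCNA at the replication fork, at chr2:164769679-164769978 (plus strand) for Ube2c, an E2 enzyme of the anaphase-promoting complex, and at chr9:70421505-70421804 (minus strand) for Ccnb2, a mitotic cyclin.
Mcm5: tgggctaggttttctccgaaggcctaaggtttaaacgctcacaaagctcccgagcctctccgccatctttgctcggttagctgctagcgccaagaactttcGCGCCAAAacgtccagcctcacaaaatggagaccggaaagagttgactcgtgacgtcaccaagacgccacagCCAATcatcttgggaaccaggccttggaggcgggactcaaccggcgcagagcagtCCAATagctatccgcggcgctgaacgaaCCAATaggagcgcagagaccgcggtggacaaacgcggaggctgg
Pclaf: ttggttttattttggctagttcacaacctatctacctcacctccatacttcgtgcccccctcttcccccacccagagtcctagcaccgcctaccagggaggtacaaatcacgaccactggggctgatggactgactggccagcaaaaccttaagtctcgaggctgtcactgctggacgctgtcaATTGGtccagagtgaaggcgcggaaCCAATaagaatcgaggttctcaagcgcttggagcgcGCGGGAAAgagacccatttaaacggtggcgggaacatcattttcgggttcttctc
Ube2c: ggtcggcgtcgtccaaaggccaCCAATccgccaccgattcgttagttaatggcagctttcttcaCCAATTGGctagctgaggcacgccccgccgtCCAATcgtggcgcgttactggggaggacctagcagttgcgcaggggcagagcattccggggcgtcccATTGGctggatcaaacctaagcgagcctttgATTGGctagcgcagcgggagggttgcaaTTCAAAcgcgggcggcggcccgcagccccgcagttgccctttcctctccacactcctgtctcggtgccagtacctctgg
Ccnb2: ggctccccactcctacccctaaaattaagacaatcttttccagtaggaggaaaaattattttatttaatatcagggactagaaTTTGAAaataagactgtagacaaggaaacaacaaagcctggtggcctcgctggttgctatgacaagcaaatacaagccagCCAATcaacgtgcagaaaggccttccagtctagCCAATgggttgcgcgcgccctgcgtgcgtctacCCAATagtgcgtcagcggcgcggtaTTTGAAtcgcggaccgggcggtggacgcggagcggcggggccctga
RefSeq windows were matched for 38 of the 44 genes, and those of Aurkb, Ccna2, Mcm4, Gins2, Tpx2 and Cdkn1c were not. The E2F-type letters stood in 8 of 17 S windows (Mcm3, Mcm5, Mcm6, Mcm7, Cdc6, Pclaf, Dtl and Hells) and in 0 of 19 G2/M windows, against 1.8% of the windows of 27025 genes. The CHR letters stood in 14 of 19 G2/M windows and 2 of 17 S windows, against 20.2% of all windows. CCAAT was held by 17 of 19 G2/M and 13 of 17 S windows, against 41.1% of all windows. A match describes the letters in the window and is not a shown binding site.

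The matrices held 47040 cells, with 50779551 to 73577028 unique molecular identifiers (UMIs, each counting 1 captured transcript) per library. Filters on UMIs, mitochondrial and haemoglobin counts left 31132 cells, 6573 and 7874 in DTA- and 7875 and 8810 in DTA+. Kept cells were deeper in DTA-, with median UMIs of 4700 and 4077 against 3551 and 3560 in DTA+. DTA- replicate 1 also lost 21.4% of its cells to the upper limit of 7500 UMIs, against 9.98% to 11.2% in the other libraries. Any pair of libraries shared 31 to 48 cell barcodes. Clustering without cell cycle genes gave 24 clusters. Of these, 16 were mesenchymal, with Col1a1 UMIs in 88.9% to 99.9% of cells, against 19.0% of the epithelium-like cells. Col1a1 did not set apart the erythroid-like (90.9%) and smooth muscle-like cells (99.4%), which were named from their own markers. Clusters are called by their 2 leading genes, with a name ending in -like where the markers gave one, except a pair called by the marker name alone. Rebuilt names may differ from those of the study.

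Summed over all kept cells, S and G2/M transcripts were lower in both DTA+ libraries than in both DTA- libraries, but no single gene passed the test. The S genes together reached 830.1 and 922 CPM (UMIs of the genes per 1000000 UMIs of the library's cells) in DTA- and 680.3 and 620.0 in DTA+. The G2/M genes together reached 1281 and 1796 CPM in DTA- and 1231 and 1036 in DTA+. The S sums were set apart by more than the replicates differed, while the G2/M sum of DTA- replicate 1 lay close to that of DTA+ replicate 1. By edgeR's quasi-likelihood test, with p-values adjusted over all genes by the Benjamini-Hochberg method, 0 of the 44 genes had an adjusted p under 0.05, where 0.488% of the 15977 genes tested did. An unadjusted p under 0.05 was reached by 24 of the 44 (15 S and 9 G2/M genes), against 15.1% of all genes, and DESeq2 called 9, where it called 3.44% of all genes to which it gave an adjusted p. The lowest adjusted p was 0.0763, for Rrm2. Both DTA+ values lay under both DTA- values for 27 of 44 genes (16 S and 11 G2/M), against 24.1% of all genes, and over them for 1 gene, Cdkn1b, against 24.7%. The median log2 fold change (DTA+ against DTA-) was -0.51 for S genes and -0.44 for G2/M genes, where that of all genes was -0.003. With 2 libraries a genotype, an exact permutation test cannot go below p = 0.333, and the p-values measure the spread between these libraries.

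The mesenchyme, which made up most of the cells, gave the same picture. There, 0 of 44 genes passed, against 1.22% of 15202 genes, although 24 had an unadjusted p under 0.05 (14 S, 9 G2/M and 1 inhibitor, against 17.3% of genes) and DESeq2 called 10, with 4.12% of all genes. Again 27 genes were lower in both DTA+ libraries (25.2% of all genes were) and 1 was higher (25.1%). Among the helicase genes, Mcm5 was at 23.7 and 24.1 CPM in DTA- and 13.9 and 16.7 in DTA+. Mcm6, another subunit of that ring, was at 49.8 and 51.8 against 42.2 and 35.2. The genotypes did not overlap for either gene, and their log2 fold changes were -0.64 (SE 0.15; adjusted p = 0.0968) and -0.40 (SE 0.14; adjusted p = 0.215).

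At the fork and its chromatin, Pcna, the sliding clamp of DNA polymerase, was at 96.8 and 111 CPM in DTA- and 73.3 and 75.1 in DTA+. Pclaf was at 113 and 143 against 84.3 and 66.4. Uhrf1, which brings the maintenance methyltransferase to newly copied DNA, was at 21.1 and 25.8 against 17.4 and 12.7. All 3 genes stood lower in both DTA+ libraries. Hells, a chromatin remodeller, was at 44.5 and 50.8 against 34.8 and 31.4. The log2 fold changes were -0.49, -0.76, -0.64 and -0.53, with adjusted p of 0.121, 0.0903, 0.174 and 0.120 in that order. In the nucleotide supply, Tyms, which makes thymidylate, was at 52.0 and 53.2 CPM against 35.2 and 30.6. Rrm2, the regulated subunit of ribonucleotide reductase, was at 28.7 and 35.2 against 19.5 and 16.4. These 2 genes came nearest to the threshold among S genes, with log2 fold changes of -0.68 (SE 0.13; adjusted p = 0.0636) and -0.83 (SE 0.16; adjusted p = 0.0665). The other S genes lay between -0.72 (Cdc6) and 0.07 (Dtl), and Dtl was the only S gene above 0.

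For the G2/M genes the control libraries differed from each other. Mki67, which coats mitotic chromosomes, was at 43.7 and 86.9 CPM in DTA- and 61.2 and 40.2 in DTA+. Top2a, which untangles sister chromatids, was at 120.0 and 204 against 128 and 94.5. Cenpf, a kinetochore protein, was at 68.8 and 112 against 79.8 and 59.2. For each of these, both DTA+ libraries lay under DTA- replicate 2, but DTA+ replicate 1 lay over DTA- replicate 1. Ccna2, the cyclin of S phase and G2, overlapped in the same way, at 17.5 and 29.2 CPM against 21.8 and 14.9. The log2 fold changes of these 4 genes were between -0.54 and -0.35, with adjusted p of 0.335 to 0.609.

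Other G2/M genes separated the genotypes. Cdk1, the kinase that starts mitosis, was at 47.6 and 58.6 CPM in DTA- and 38.2 and 35.7 in DTA+. Ccnb1, its cyclin partner, was at 21.4 and 26.3 against 16.2 and 13.8. Ube2c was at 91.7 and 116 against 64.3 and 55.5. Each was lower in both DTA+ libraries, with log2 fold changes of -0.52 (adjusted p = 0.147), -0.67 (adjusted p = 0.112) and -0.79 (adjusted p = 0.0685). Hmgb2, a chromatin protein that is also made outside mitosis, was at 451 and 616 against 428 and 399, a log2 fold change of -0.37 (adjusted p = 0.287). All 22 G2/M genes had a log2 fold change below 0, down to that of Ube2c.

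**Figure D1:**
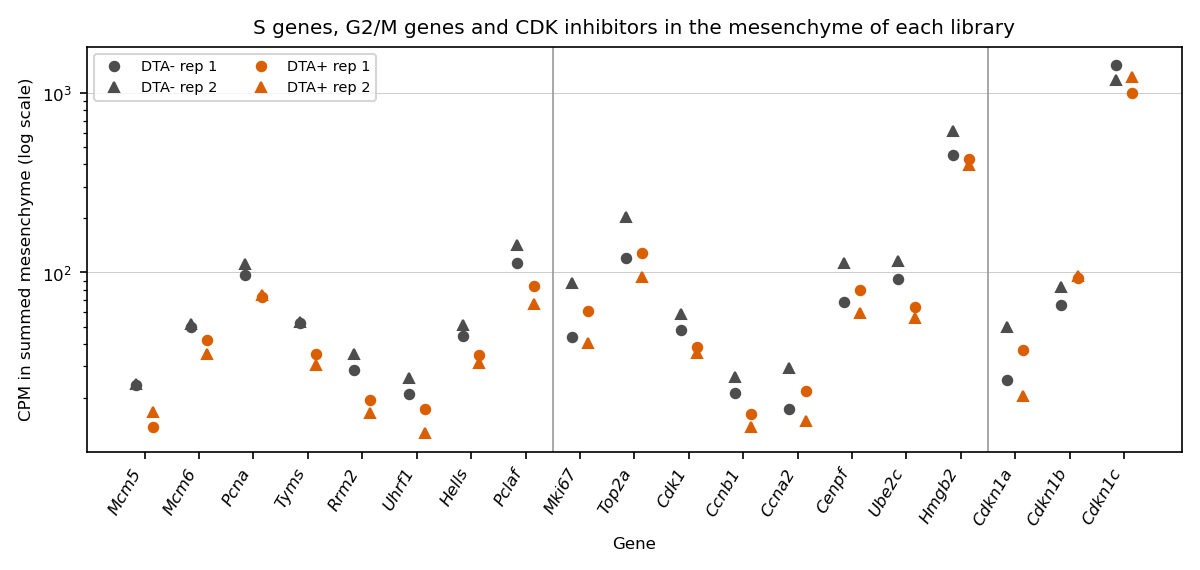
CPM in the mesenchyme, on a log axis, for the 19 genes followed in detail, with 1 point per library. The points of Mcm5, Tyms and Rrm2 separate by genotype, while those of Mki67, Top2a and Cenpf spread widely between the 2 DTA- libraries, so that DTA+ replicate 1 lies between them.

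A ratio of at least 1.5 between the 2 DTA- libraries was seen for 13 of 22 G2/M genes in the mesenchyme and for 0 of 19 S genes. It was largest for Kif11, a spindle motor, at 17.7 and 38.0 CPM. Without DTA- replicate 2 the median log2 fold change of the G2/M genes in the mesenchyme was -0.13, and without DTA- replicate 1 it was -0.79, while that of the S genes was -0.45 and -0.58. Without DTA- replicate 2 the log2 fold changes of Mki67, Ccna2 and Cenpf were 0.20, 0.05 and 0.003. DTA- replicate 1 is also the library with the largest share of cells over the upper UMI limit, and among cells of at least 7500 UMIs, which are not part of the sums, 34.7% of those in DTA- replicate 1 passed the G2/M count defined next, against 36.5% in DTA- replicate 2 and 36.7% and 25.8% in DTA+. Without the upper limit the G2/M count was passed by 15.2% and 14.4% of the mesenchymal cells in DTA- and 9.24% and 7.14% in DTA+, so that the order of the 2 controls turned.

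In summed counts, fewer dividing cells and less cell cycle RNA per dividing cell cannot be told apart. Cells were also counted, but by the same transcripts, so a dividing cell with less of this RNA can fail the count. Levels per passing cell leave such cells out, so the 2 cannot be fully told apart in the counts either. Each cell was thinned to 1000 UMIs and counted if it kept at least 2 UMIs over the S genes, or over the 21 G2/M genes without Hmgb2. In the mesenchyme, 15.1% and 16.6% of DTA- cells passed the S count, against 10.7% and 10.3% of DTA+ cells. The G2/M count was passed by 9.10% and 11.6% of DTA- cells and 6.71% and 5.42% of DTA+ cells. Both shares were lower in both DTA+ libraries, by 5.36 and 4.29 percentage points. Unthinned, the differences were 12.7 and 6.77 points. The cells that passed the G2/M count held 7.10 and 7.94 G2/M UMIs each in DTA- and 8.64 and 7.83 in DTA+, which overlapped. The S level per passing cell was 3.44 and 3.63 in DTA- and 3.36 and 3.17 in DTA+, lower in both DTA+ libraries. Close to the limit lay 492 kept cells with exactly 2 G2/M UMIs and 2363 with 1, and for S genes 2011 and 7300 cells.

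The calls of single populations were not spread evenly over the mesenchyme. Of its 16 clusters, 15 had at least 20 cells in every library and were tested, each as its own sums. In 565 tests of a cell cycle gene in a population, 99 (17.5%) were called lower in DTA+ and 0 higher, where 2.28% and 2.04% of 144684 tests over all genes were. The calls took in 46 of 245 S tests, 50 of 278 G2/M tests and 3 of 42 inhibitor tests, fell in 9 of 15 populations and involved 38 genes. In the populations without a call the median log2 fold change of the G2/M genes ran from -1.79 to 0.38. Ube2c fell in 6 populations, and Pclaf, Uhrf1, Rrm2 and Birc5 in 5 each. Aurka, Bub1, Cdc45, Cdc6, Slbp and Cdkn1b were called in none. With cells thinned to 1000 UMIs the calls were 41, where 2.61% of 81526 tests over all genes were called in either direction. By DESeq2 they were 45, where 2.38% were, against 4.32% in the main setting.

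**Figure D2:**
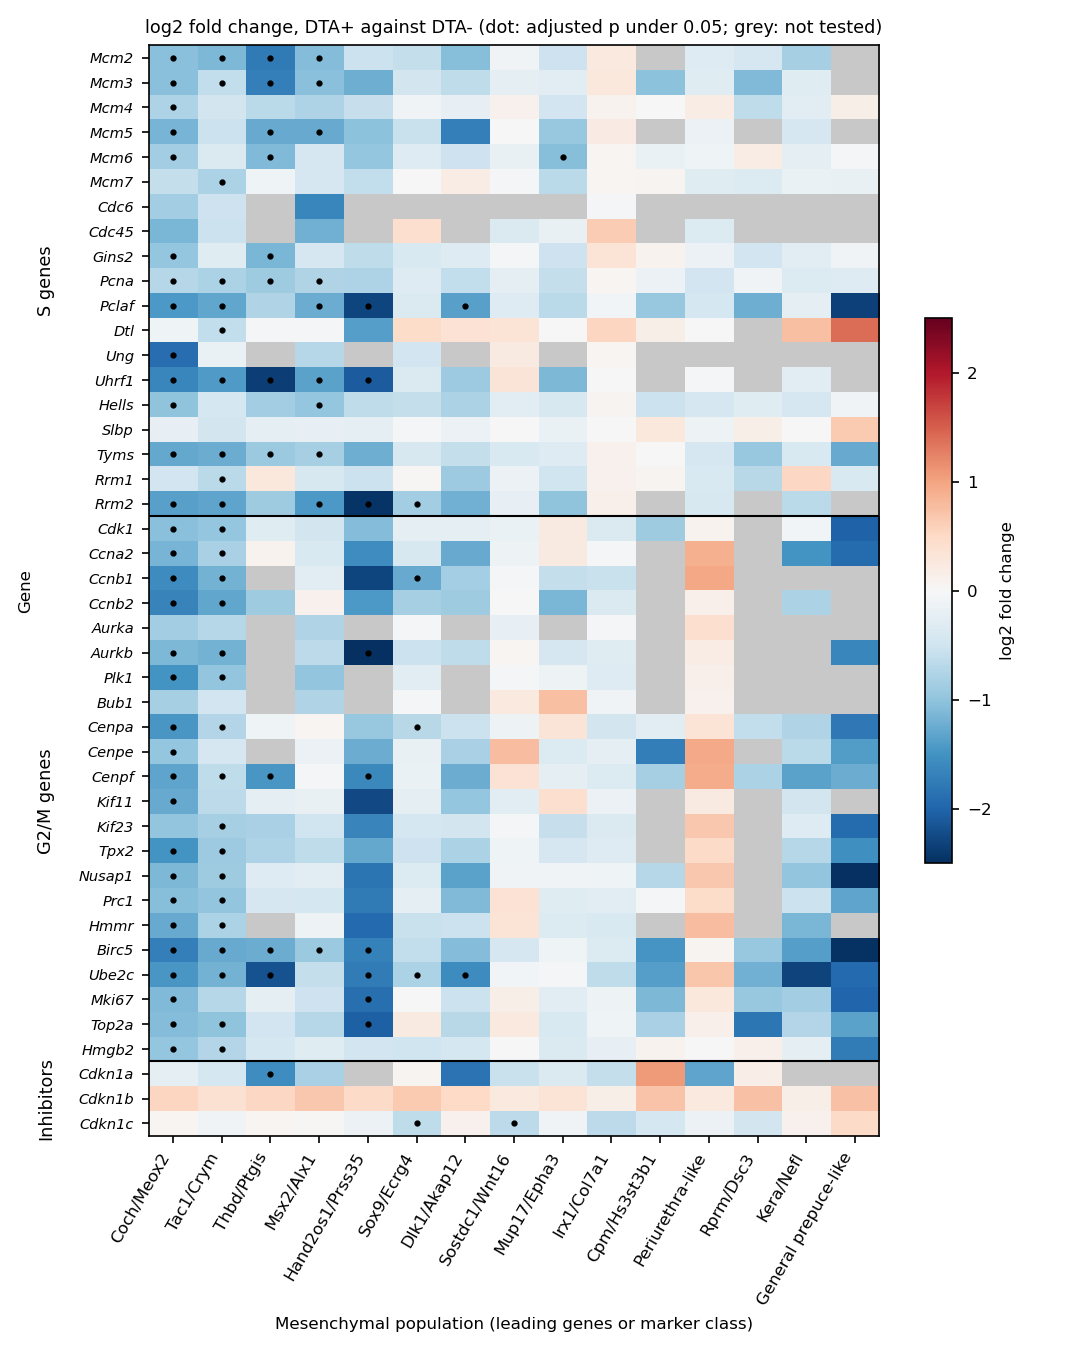
Log2 fold change (DTA+ against DTA-) of each of the 44 genes (rows) in the 15 tested mesenchymal populations (columns), blue for lower and red for higher, with a dot where the adjusted p was under 0.05 and grey where a gene was not tested. The Coch/Meox2 and Tac1/Crym populations hold 32 and 27 of the 99 dots, and the Irx1/Col7a1 population holds none.

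The Coch/Meox2 population, to which the markers gave no name, had the most calls by edgeR's test. There, 32 of 44 genes fell, 13 of S phase and 19 of G2/M, where 4.97% of genes tested were called lower. Birc5, the survivin subunit of the chromosomal passenger complex, was at 90.9 and 169 CPM in DTA- and 36.5 and 44.2 in DTA+, a log2 fold change of -1.70 (SE 0.25; adjusted p = 0.000411). Ccnb2 was at 27.0 and 54.7 CPM against 11.5 and 14.7, a change of -1.66 (SE 0.33; adjusted p = 0.00359). Ccnb1 was at 25.4 and 49.3 against 8.17 and 18.1, a change of -1.58 (SE 0.36; adjusted p = 0.00884). DTA- replicate 2 was the highest library for all 3, yet both DTA- libraries stood over both DTA+ libraries. Tpx2, which builds spindle microtubules, was at 36.5 and 86.0 CPM against 23.6 and 19.4, a change of -1.50 (SE 0.32; adjusted p = 0.00616). Among S genes, Ung, which removes uracil from DNA, was at 18.7 and 15.1 CPM against 4.33 and 4.68, from 47, 42, 9 and 7 UMIs, a change of -1.90 (SE 0.37; adjusted p = 0.00316). Uhrf1 was at 22.2 and 38.5 against 10.6 and 8.70, a change of -1.64 (SE 0.32; adjusted p = 0.00331). These S genes, too, were lower in both DTA+ libraries. The G2/M count was passed by 13.1% and 22.6% of the DTA- cells and 5.99% and 5.19% of the DTA+ cells, and the S count by 19.4% and 29.0% against 11.3% and 11.4%. The calls numbered 17 without DTA+ replicate 1, and 13 by DESeq2 or with thinned cells.

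In the Tac1/Crym population (distal glans-like), which had the largest share of DTA- cells past the S and the G2/M count among populations with over 100 cells in every library, 27 of 44 genes fell, 10 of S phase and 17 of G2/M, against 5.22% of genes. Pclaf was at 418 and 450.1 CPM in DTA- and 199 and 158 in DTA+, a log2 fold change of -1.30 (SE 0.13; adjusted p = 2.34e-06). Birc5 was at 231 and 274 against 119.8 and 94.5, a change of -1.26 (SE 0.15; adjusted p = 1.38e-05). Tyms was at 137 and 116 against 58.3 and 51.4, a change of -1.23 (SE 0.17; adjusted p = 8.75e-05). The libraries of each genotype lay close together and far from the other genotype for these genes. Rrm2 was at 92.1 and 102 CPM against 45.7 and 33.9, a change of -1.33 (SE 0.19; adjusted p = 0.000136). Ccnb2 was at 60.9 and 87.8 against 38.6 and 24.4, a change of -1.29 (SE 0.23; adjusted p = 0.00111). Uhrf1 was at 59.7 and 65.1 against 33.1 and 17.5, the largest decrease here, at -1.41 (SE 0.24; adjusted p = 0.000622). For Ccnb2 and Uhrf1, DTA+ replicate 2 was the lowest library. The G2/M count was passed by 26.2% and 32.9% of DTA- cells and 13.4% and 10.7% of DTA+ cells, and the S count by 36.1% and 34.6% against 25.1% and 19.1%. Without DTA+ replicate 2 the calls numbered 13, and by DESeq2 16.

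In the Msx2/Alx1 population, also distal glans-like, the calls lay mostly in S phase, with 9 S genes and Birc5 (1.46% of genes were called lower). Rrm2 was at 36.2 and 47.6 CPM against 10.7 and 18.6, a log2 fold change of -1.43 (SE 0.26; adjusted p = 0.00845). Pclaf was at 139 and 176 against 52.0 and 78.6, a change of -1.24 (SE 0.20; adjusted p = 0.00434). Mcm5 was at 32.9 and 31.0 against 10.2 and 15.4, a change of -1.27 (SE 0.25; adjusted p = 0.0149). The gap between genotypes exceeded the gap between replicates for each of the 3. Uhrf1, Mcm2 and Mcm3, the last 2 helicase subunits, fell by 1.34, 1.07 and 1.05 on the log2 scale. The G2/M median was -0.45 and the S median -0.83, and whether the 2 classes differed was not tested. The calls numbered 3 without DTA+ replicate 1 or with thinned cells and 5 by DESeq2.

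In the Thbd/Ptgis population (subdermal prepuce-like), 12 of 34 genes tested fell, 8 of S phase, 3 of G2/M and Cdkn1a, against 6.68% of genes. Mcm3 was at 30.6 and 45.5 CPM against 10.8 and 11.9, a log2 fold change of -1.71 (SE 0.30; adjusted p = 0.00113). Mcm2 was at 19.7 and 18.1 against 4.65 and 6.28, a change of -1.76 (SE 0.38; adjusted p = 0.00491). Ube2c was at 20.6 and 23.9 against 3.87 and 5.65, a change of -2.18 (SE 0.38; adjusted p = 0.00113). All DTA+ values were under the DTA- values, but few UMIs stood behind them, with 5 and 9 for Ube2c in DTA+. Uhrf1 was at 8.69 and 21.0 CPM against 1.55 and 3.77, from 19, 36, 2 and 6 UMIs, a change of -2.35 (SE 0.58; adjusted p = 0.0113). Cenpf was at 19.7 and 18.7 against 6.97 and 6.91, a change of -1.46 (SE 0.35; adjusted p = 0.0106). With thinned cells 1 call was left and by DESeq2 4, and leaving out a library gave 7 (DTA+ replicate 2), 8 (DTA+ replicate 1 or DTA- replicate 2) or 18 (DTA- replicate 1).

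In the Hand2os1/Prss35 population, without a name from the markers, 9 of 37 genes tested fell (3 S and 6 G2/M, against 0.772% of genes). Top2a was at 145 and 174 CPM against 34.1 and 42.7, a log2 fold change of -2.03 (SE 0.22; adjusted p = 0.000396). Pclaf was at 158 and 138 against 32.8 and 27.6, a change of -2.30 (SE 0.23; adjusted p = 0.000300). Rrm2 was at 48.7 and 36.8 against 3.94 and 10.0, from 32, 33, 3 and 12 UMIs, a change of -2.45 (SE 0.42; adjusted p = 0.00785). For these genes the DTA+ values were far under both DTA- values. Mki67 was at 33.5 and 86.9 CPM against 14.4 and 18.4, a change of -1.89 (SE 0.41; adjusted p = 0.0381). Aurkb, the kinase of the chromosomal passenger complex, had 9 and 22 UMIs against 1 and 4, a change of -2.89 (SE 0.64; adjusted p = 0.0381), and Uhrf1 fell by 2.09 on the same scale. The G2/M median was -1.68 over the 19 genes tested, but the calls numbered 2 with thinned cells and 3 by DESeq2. They numbered 16 without DTA- replicate 1 and 18 without DTA+ replicate 2. In a clustering that kept the cell cycle genes, the matching cluster had 0 calls among 15 genes tested and a G2/M median of 0.83.

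Other populations had few calls, but few calls did not always go with small changes. The S and G2/M medians of the log2 fold change were -0.62 and -0.81 in the Dlk1/Akap12 population. In the Tac1/Crym population, with 27 calls, they were -0.61 and -0.86. They were -0.37 and -0.37 in the Sox9/Ecrg4 population and -0.12 and -0.03 in the Sostdc1/Wnt16 population. In the Dlk1/Akap12 population 21 of 38 genes had an unadjusted p under 0.05, against 14.6% of all genes. In the Sox9/Ecrg4 population (corpus cavernosum-like), Ccnb1, Rrm2, Ube2c, Cenpa and Cdkn1c fell (4.19% of genes were called lower), and Ccnb1, at 14.2 and 21.9 CPM against 7.62 and 7.32, fell by 1.26 on the log2 scale (adjusted p = 0.0196). The other 4 fell by 0.86, 0.79, 0.69 and 0.63. The calls there numbered 17 without DTA- replicate 1, 2 lower and 4 higher without DTA- replicate 2, 2 without DTA+ replicate 1 and 0 without DTA+ replicate 2 or with thinned cells. In the Dlk1/Akap12 population (general prepuce-like), Ube2c fell from 38.5 and 41.2 CPM to 12.4 and 14.4, by 1.58 (adjusted p = 0.00641), and Pclaf from 45.9 and 54.4 to 23.3 and 16.5, by 1.35 (adjusted p = 0.0145), where 1.86% of genes were called lower. Calls numbered 0 with thinned cells, and 14 without DTA- replicate 1, 3 without DTA- replicate 2, 7 without DTA+ replicate 1 and 5 without DTA+ replicate 2. General prepuce-like cells fell in different clusters in the genotypes, the Iyd/Stmn2 cluster holding 8 and 8 DTA- cells and 730 and 427 DTA+ cells, so that cluster was not tested. In the Mup17/Epha3 population (periurethra-like), Mcm6 was the only gene called, where 2.4% of genes were called lower. It went from 69.4 and 59.9 CPM to 20.3 and 36.7, a log2 fold change of -1.06 (adjusted p = 0.00999). All 17 S genes tested there had a log2 fold change below 0, with a median of -0.52. So had 16 of 21 G2/M genes, with a median of -0.28, against 50.1% of all genes. An unadjusted p under 0.05 was reached by 8 of 41 genes, against 12.7% of all genes. Calls numbered 0 with thinned cells, and they depended on which library was left out. In the Sostdc1/Wnt16 population only Cdkn1c was called (1.35% of genes).

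The remaining 6 tested populations had no call. In the Irx1/Col7a1 population (0.481% of genes called lower), Mcm5 was at 20.03 and 29.5 CPM against 27.0 and 32.3. Tyms was at 61.0 and 68.9 against 64.0 and 76.5. The genotypes overlapped for both, and the S median was 0.10 and the G2/M median -0.32. The log2 fold change was below 0 for all 22 G2/M genes and for 4 of 19 S genes. An unadjusted p under 0.05 was reached by 3 of these G2/M genes, against 7.05% of all genes. Of its cells, 17.6% and 20.1% passed the S count in DTA- and 19.7% and 22.03% in DTA+. The G2/M count was passed by 16.9% and 17.9% against 16.4% and 14.1%. In the other periurethra-like population, called by its marker class alone (1.23% of genes called lower and 1.31% higher), all 22 G2/M genes had a log2 fold change above 0, with a median of 0.38, while the S median was -0.30. Of these genes, only Ccnb1 and Cenpf were higher in both DTA+ libraries than in both DTA- libraries, where 22.5% of all genes were. The other G2/M genes overlapped. Cenpf was at 24.2 and 64.5 CPM in DTA- and 70.5 and 94.7 in DTA+ (adjusted p = 0.271). The DTA+ values of Cenpf were both higher, that of replicate 1 by little over DTA- replicate 2. The Cpm/Hs3st3b1 population (osteogenic-like) had the lowest mean share past the G2/M count, with 1.02% and 2.12% of DTA- cells and 0.635% and 0.868% of DTA+ cells. Of all genes there, 0.992% were called lower. The Rprm/Dsc3 population (0.0638% of genes called lower), the Kera/Nefl population (0.297%) and another general prepuce-like population (0.0527%) also had no call, and the last had 20 cells in DTA- replicate 2. An unadjusted p under 0.05 was reached by 2 of 42 genes tested in the periurethra-like and 10 of 26 in the Cpm/Hs3st3b1 population. It was reached by 5 of 44 (Irx1/Col7a1), 8 of 22 (Rprm/Dsc3), 6 of 35 (Kera/Nefl) and 8 of 28 (general prepuce-like). In these 6 populations 7.05% to 16.8% of all genes reached it, and DESeq2 called 0 cell cycle genes. In the Cpm/Hs3st3b1, Rprm/Dsc3, Kera/Nefl and general prepuce-like populations the G2/M medians were -0.82, -0.95, -0.76 and -1.79, over 11, 7, 17 and 15 genes. The S medians there were 0.002, -0.44, -0.29 and -0.09.

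**Figure D3:**
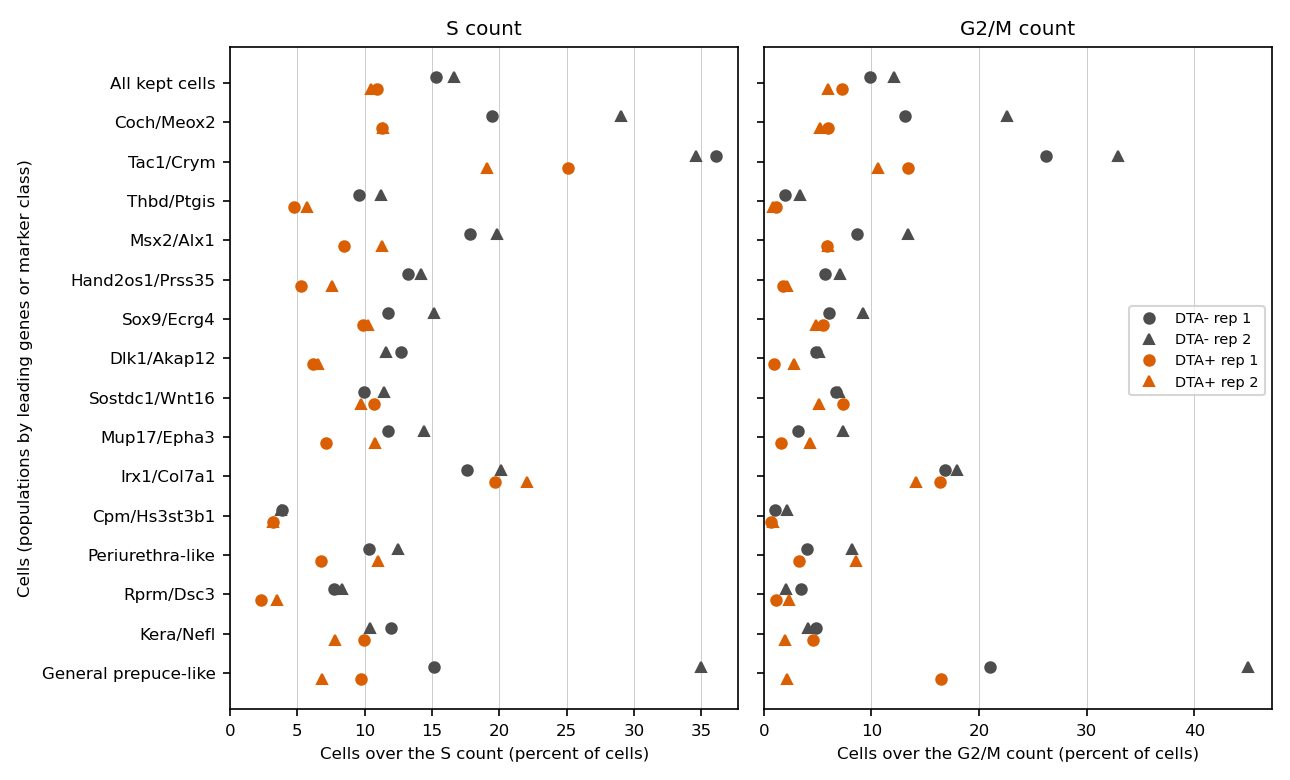
Share of cells (percent, after thinning to 1000 UMIs) with at least 2 UMIs over the S or the G2/M genes, by population and library. In the Tac1/Crym population the G2/M share is 26.2% and 32.9% in DTA- and 13.4% and 10.7% in DTA+, whereas in the Sostdc1/Wnt16 population the genotypes overlap.

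Whether the change differed among the populations was tested directly, with an interaction term for genotype and population in 1 model over the 15 populations. It passed for 12 of 44 genes, a share to be read against 12% of 12644 genes. These were Mcm2, Mcm3, Mcm5, Pcna, Pclaf, Dtl, Uhrf1, Tyms, Rrm1, Rrm2, Ccna2 and Cenpf, of which 10 are S genes. Mcm3 had the lowest adjusted p (0.000914), with log2 fold changes from -1.71 to 0.26 over the populations. The count was lower without either DTA- library and higher without either DTA+ library, while fewer of all genes passed in each of these fits.

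The 3 CDK inhibitors had no common direction. Cdkn1b (p27) was at 66.1 and 83.3 CPM in the mesenchyme of DTA- and 93.4 and 95.1 in DTA+, higher in both DTA+ libraries, with a log2 fold change of 0.34 (SE 0.14; adjusted p = 0.288). Its log2 fold change was above 0 in 15 of 15 populations, from 0.14 to 0.73, and both DTA+ libraries were higher in 12, against 23.2% of all tests, but it passed in none of them. It came nearest in the Msx2/Alx1 population, with 77.9 and 103.8 CPM in DTA- and 140.2 and 146 in DTA+ (0.67 on the log2 scale, SE 0.17; adjusted p = 0.0533). There the 2 DTA+ libraries lay close together and over both DTA- libraries. Cdkn1c (p57), with the most UMIs of the 44 genes, was at 1422 and 1183 CPM in DTA- and 1005 and 1225 in DTA+, which overlapped. It fell in the Sox9/Ecrg4 population, from 1945 and 1479 CPM to 1142 and 1067 (a log2 fold change of -0.63; adjusted p = 0.00871), but this call was lost without DTA+ replicate 2 or with thinned cells. It also fell in the Sostdc1/Wnt16 population, from 973 and 816 CPM to 518 and 616 (-0.66; adjusted p = 0.0396), but this call was lost without DTA- replicate 1, DTA+ replicate 1 or DTA+ replicate 2. Cdkn1a (p21), a target of p53, was at 25.3 and 49.9 CPM against 37.0 and 20.6 in the mesenchyme, which overlapped. In the Thbd/Ptgis population Cdkn1a fell from 47.6 and 82.3 CPM to 17.0 and 25.8, a change of -1.56 (SE 0.29; adjusted p = 0.00159).

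**Figure D4:**
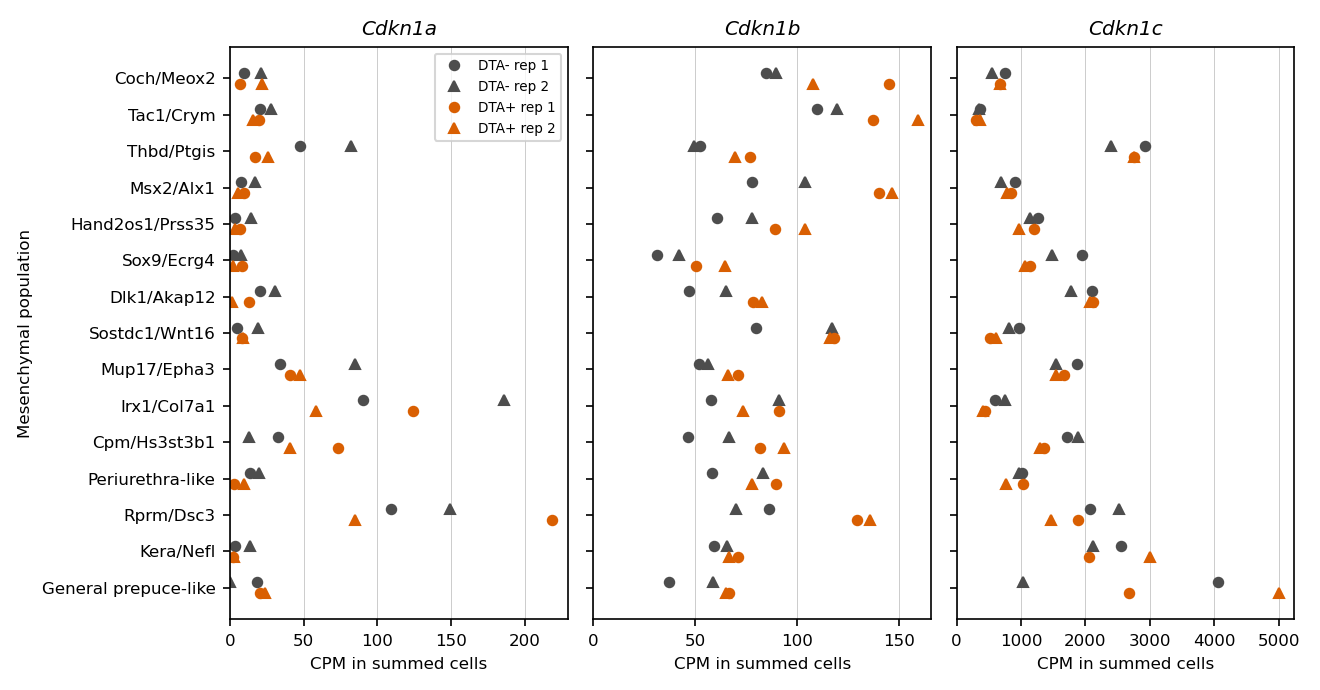
CPM of Cdkn1a, Cdkn1b and Cdkn1c (panels, each on its own linear axis) in the summed cells of the 15 mesenchymal populations, with 1 point per library. For Cdkn1b both DTA+ points lie to the right of both DTA- points in 12 of 15 populations, while for Cdkn1c the DTA+ points lie to the left in the Sox9/Ecrg4 and Sostdc1/Wnt16 populations.

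Within the mesenchyme, the inhibitors could also be set against the cycle state of the cells, as a description. Cdkn1c was lower in cells past either count than in cells with no S or G2/M UMI after thinning, with ratios of 0.563 and 0.705 in DTA- and 0.578 and 0.632 in DTA+. For Cdkn1b the ratios were 1.23 and 1.18 in DTA- and 1.06 and 0.918 in DTA+. Those of Cdkn1a were 0.730 and 1.38 in DTA- and 1.67 and 1.43 in DTA+. The Cdkn1c ratio was below 1 in all 4 libraries, and those of Cdkn1a and Cdkn1b lay on both sides of it. The ratios pool populations that differed in Cdkn1c and in the share of cells past the counts. In DTA-, Cdkn1c was at 2918 and 2388 CPM in the Thbd/Ptgis and 597 and 746 in the Irx1/Col7a1 population. Differences between populations and between cells of the same population cannot be told apart in these ratios.

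Outside the mesenchyme no cell cycle gene passed, but in simulated epithelium-like sums the test recovered only 8% of log2 changes of 1. In epithelium-like cells (90 to 150 cells a library), 0 of 36 genes tested were called, as were 0% of 4874 genes, and 12 had an unadjusted p under 0.05 (6 S and 6 G2/M), against 4.7% of genes. Rrm2 was at 37.4 and 85.5 CPM in DTA- and 13.4 and 15.7 in DTA+, from 14, 28, 7 and 5 UMIs, a log2 fold change of -2.06 (adjusted p = 0.953). Pclaf was at 243 and 339 CPM against 130.3 and 151, a change of -1.05 (adjusted p = 0.953). Both were lower in both DTA+ libraries, and the medians were -0.77 for S and -0.64 for G2/M genes. In endothelium-like cells the medians were -0.27 and -0.13, with 0 of 37 called against 0.0177% of genes. Calls were also 0 in macrophage-like (0% of genes), mast-like (0.709%), erythroid-like (0.284%), glia-like (0.105%) and pericyte-like cells (0.185%). An unadjusted p under 0.05 was reached by 2 of 37 genes in endothelium-like cells (5.12% of all genes) and 3 of 19 in macrophage-like cells (4.29%). It was reached by 2 of 7 in mast-like (7.54%) and 5 of 32 in erythroid-like cells (9.18%). In glia-like cells 4 of 34 reached it (4.53%), and in pericyte-like cells 7 of 29 (5.79%). DESeq2 called 0 in each. The G2/M median was 0.77 in macrophage-like cells, over 7 genes of which 2 were below 0. In mast-like, erythroid-like, glia-like and pericyte-like cells it was -0.56, -0.40, -0.32 and -0.34. In macrophage-like cells Mki67 had 2 and 1 UMIs in DTA- and 19 and 13 in DTA+ (5.77 and 2.87 against 50.7 and 36.4 CPM; adjusted p = 0.676), higher in both DTA+ libraries. Smooth muscle-like cells, of which DTA+ replicate 2 held 8, were not tested. In the interaction of genotype with lineage, 0 of 44 genes differed between mesenchyme and epithelium (0.277% of 14797 genes did). Between mesenchyme and endothelium 1 of 44 did (0.404% of 14604 genes), Cdkn1c, which was at 330.4 and 364 CPM in endothelium-like DTA- cells and 392 and 573 in DTA+ (adjusted p of the difference = 0.0319). This call was lost without DTA- replicate 1 or DTA+ replicate 2.

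In a wider list of 136 other cell cycle genes, the replication and mitosis genes had medians below 0 as well. In the mesenchyme 2 of 134 tested were called, both lower, a share close to the 1.22% of all genes called. Chaf1b, a subunit of the chromatin assembly factor that works behind the fork, fell from 13.6 and 14.4 CPM to 7.27 and 6.80, a log2 fold change of -0.99 (SE 0.15; adjusted p = 0.0377). Ran, the GTPase of nuclear transport and spindle assembly, fell from 426 and 389 CPM to 246 and 253, a change of -0.71 (SE 0.10; adjusted p = 0.0363). Both had little spread within a genotype. Median log2 fold changes were -0.40 for 30 replication genes, -0.39 for 50 mitosis genes, -0.44 for 17 histone and chromatin genes, -0.37 for 15 RB, E2F and late regulators, -0.12 for 10 tested G1 cyclins, CDKs and INK4 genes and 0.21 for 13 p53 targets. In the Tac1/Crym population 66 of 132 tested fell and 4 rose (5.22% and 4.09% of genes did), and in the Coch/Meox2 population 45 of 127 fell and 3 rose (4.97% and 4.52%). Btg2, Gadd45b and Trp53inp1, from the list of p53 targets, rose in both populations. Ccnd1, a G1 cyclin, rose in the Tac1/Crym and Cpm/Hs3st3b1 populations and fell in the Msx2/Alx1 and Sox9/Ecrg4 populations.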

How the data were processed

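Single-cell suspensions of 4 male genitalia at embryonic day 16.5 were run on a droplet 3′ platform. The authors aligned reads to mm10 with added reporter sequences and deposited UMI counts per gene and cell, which are whole-number counts without normalization (Cell Ranger 4.0.0 per the submitters' processing notes). Kept were cells of over 1000 and under 7500 UMIs in which mitochondrial genes took at most 25%, Hba genes at most 25% and Hbb genes at most 50% of UMIs. They were clustered with Seurat 5.3.0 in R 4.3.3 (2000 variable genes after leaving out 298 cell cycle genes, S and G2/M scores regressed out, 30 components, resolution 0.8). Counts were summed per sample and cluster, lineage or all kept cells, where every sample had at least 20 cells. Sums were tested with edgeR 4.0.16 (quasi-likelihood test, TMM, filterByExpr) and called at a Benjamini-Hochberg adjusted p under 0.05 over all genes tested. CPM of single genes are summed counts scaled to 1000000 UMIs, with library sizes taken over the genes tested and adjusted by TMM. Doublets were left in: Scrublet marked 3 cells in all, so the automatic call did not work, and leaving out its top scores was an alternative. The scripts were tested on simulated data. Groups were taken from the labels, with 2 samples each. The sample labels do not say whether same-numbered samples were paired. The correlation of their deviations across genes was -0.234, which does not settle it, and they were not treated as pairs.

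The 44 genes, the other lists and the tests were chosen with earlier results of these data known. Values per sample are given for a list of 19 genes and, in each population, for called genes, at most the 6 with the largest absolute log2 fold change. From the wider list, genes called in the mesenchyme with a mean of at least 10 CPM are named. Genes of lineages or populations without calls (Rrm2, Pclaf, Mki67, Mcm5, Tyms, Cenpf) and Cdkn1b in the Msx2/Alx1 population, Kif11, and the genes of the wider list named in the Tac1/Crym and Coch/Meox2 populations were chosen after their values were seen. Alternatives were DESeq2 1.42.0, edgeR's likelihood ratio test, other size factors, no filter, a replicate block, thinned cells, other cell filters, other clusterings and leaving out each sample. Promoter windows are RefSeq GRCm38.p6. Python 3.11.15, NumPy 2.4.6, SciPy 1.17.1, pandas 2.3.3, Scanpy 1.11.5 and Matplotlib 3.10.9 were used. The leading genes of a pair of clusters are not reported here.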

Additional observations from a re-analysis of the deposited data

Results flagged for a closer look

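Changes that differed between populations or lineages, by the interaction of genotype with population or lineage in edgeR's quasi-likelihood test, are given here with their adjusted p. Among the helicase genes the change differed between mesenchymal populations for Mcm2 (adjusted p = 0.0172; log2 fold changes of -1.76 to 0.24), Mcm3 (0.000914; -1.71 to 0.26) and Mcm5 (0.00497; -1.71 to 0.21). At the fork and in chromatin it differed for Pcna (0.0229; -0.88 to 0.06), Pclaf (0.0425; -2.32 to -0.08), Dtl (0.00239; -1.38 to 1.40) and Uhrf1 (0.00977; -2.35 to 0.33). In nucleotide synthesis it differed for Tyms (0.0117; -1.28 to 0.10), Rrm1 (0.0337; -0.90 to 0.51) and Rrm2 (0.00454; -2.45 to 0.12). Of the G2/M genes it differed for Ccna2 (0.0491; -1.92 to 0.88) and Cenpf (adjusted p = 0.028; -1.61 to 0.93). Dtl, which marks the replication-coupled ubiquitin ligase, was below 0 in 6 of 14 populations tested and above 0 in the others. The change of Cdkn1c differed between mesenchyme and endothelium (adjusted p = 0.0319). The share of all genes with such an interaction was 12% among populations, and 0.404% between mesenchyme and endothelium.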

How the results depend on the processing

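Calls of cell cycle genes over all kept cells numbered 0, where 0.488% of all genes were called in either direction. They numbered 9 by DESeq2 (3.44% of all genes) and 13 by the likelihood ratio test (4.12%). Without a filter on low counts they numbered 11 (2.8%), and with thinned cells 4 (1.04%). In the mesenchyme they numbered 10 (4.12%), 13 (6%), 19 (5.3%) and 7 (2.38%) under those settings, and 1 (1.56%) without doublets. In other lineages they numbered 3 by the likelihood ratio test, 5 without a filter, 2 without the upper UMI limit, 2 with samples integrated and 1 to 8 when a library was left out. In the mesenchymal populations the 99 calls became 45 by DESeq2, 154 without a filter, 41 with thinned cells, 50 with cell cycle genes kept in the clustering, 183 without the upper UMI limit, and 95 to 164 when a library was left out. Of all tests in the other lineages 0.138% were called in the main setting, 0.436% by the likelihood ratio test and 0.218% without a filter. Without the upper UMI limit 0.153% were, and with samples integrated 0.141%. In the populations the main share was 4.32%, against 2.38% by DESeq2, 3.83% without a filter and 2.61% with thinned cells. It was 4.18% with cell cycle genes kept (14 populations) and 5.94% without the upper UMI limit (12 populations). The 2 calls of the wider list in the mesenchyme became 19 by DESeq2 (4.12%), 21 by the likelihood ratio test (6%) and 31 without a filter (5.3%). They became 10 with thinned cells (2.38%) and 7 without doublets (1.56%). Without the upper UMI limit there were 5 (1.22%), and with samples integrated 10 (1.71%). Leaving out a library moved the G2/M median from -0.71 to -0.136 in all kept cells and from -0.789 to -0.128 in the mesenchyme. Interaction calls among populations were 21 by the likelihood ratio test, 38 without a filter and 2 to 25 when a library was left out. Those between mesenchyme and endothelium were 0 by the likelihood ratio test and 0 to 2 when a library was left out, and between mesenchyme and epithelium 0 to 1. The share of cells past a count (DTA+ minus DTA-, percentage points) was -4.36 for G2/M over all kept cells, -7.04 unthinned and -6.55 without the upper UMI limit. For S it was -5.26, and -6.26 with at least 1 UMI, -3.55 with at least 3, -11.7 unthinned and -6.92 without the upper limit. In the mesenchyme G2/M was -4.29, -6.77 unthinned and -6.65 without the upper limit, and S was -5.36, -6.35 with at least 1 UMI, -3.67 with at least 3, -12.7 unthinned and -7.36 without the upper limit. Every one of these share differences was below 0.

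When a library was left out, the log2 fold changes over all kept cells ran from -0.714 to 0.213 for Mki67, -0.622 to 0.0288 for Ccna2, -0.663 to 0.00692 for Cenpf and -0.775 to 0.253 for Cdkn1a, and in the mesenchyme from -0.778 to 0.201 for Mki67, -0.677 to 0.0549 for Ccna2, -0.693 to 0.00273 for Cenpf and -0.872 to 0.172 for Cdkn1a. The highest value was each time that without DTA- replicate 2, and Cdkn1a over all kept cells was at 0.0387 without DTA+ replicate 2. The cause was not tested for any of these changes.

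The replicate block, with numbers that are not known to pair the samples, gave 2 calls over all kept cells (2.1% of all genes) and 0 in the mesenchyme (1.74%). It gave 0 in other lineages (0.19%), 123 in the populations (4.97%) and 3 in the wider list. A crossed pairing, chosen after seeing the data because same-numbered samples deviated in opposite directions, gave 23, 27, 2, 159 and 49, where 10.4% of all genes over all kept cells, 13.1% in the mesenchyme, 0.602% in other lineages and 7.26% in the populations were called.

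With 2 libraries a genotype, the G2/M values depend on which DTA- library is used, and without the upper UMI limit the G2/M shares of the DTA- libraries in the mesenchyme were 15.2% and 14.4%. Kept DTA- cells were deeper than kept DTA+ cells, and thinning matched the UMIs per cell only.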
